A study of Mus musculus with 9 samples.

Results

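The interferon response and guanylate-binding protein (GBP) genes are a set of 51 genes chosen by symbol. They are the 8 GBPs from *Gbp2* to *Gbp9*, 3 immunity-related GTPases, 7 transcription factors, 3 RNA sensors, 13 antiviral effectors, 9 genes of the ISG15 system and other regulators, and 8 genes of antigen processing and presentation. Of the 23332 gene rows of the series, 48 carried a member's symbol exactly. *Irf9* stood in a row joined with its neighbour *Rnf31*, *Ifit3* stood in a row joined with I830012O16Rik, a name of the *Ifit3b* copy, and *Ifi27* had no row. All 50 rows are accounted for below.

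The RNA of 9 samples of FVB MOE cells was sequenced, a mouse oviductal secretory epithelial line that the study describes as derived from 1 clone. All cells were hormone starved for 48 h in charcoal-stripped medium and then received, for 24 h, the solvent DMSO (0.1%), 1 nM 17-betaestradiol (E2) or 100 nM 4-hydroxytamoxifen (4OHT), the active metabolite of tamoxifen. Each of the 3 conditions had 3 samples, numbered 1 to 3, and the routine culture medium before starvation contained E2 for every group. Nothing in the labels states whether the 3 samples were separate cultures, so the p-values measure the spread between these samples only.

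Interferons are secreted proteins that bind paired receptors and activate JAK kinases, which phosphorylate STAT factors. Complexes of these factors bind the interferon-stimulated response element (ISRE) and the gamma-activated site (GAS) in DNA. The genes switched on in this way include GTPases that attack microbes inside cells, sensors of foreign RNA, proteins that block viral translation or release, and the machinery that loads peptides onto MHC class I. Many cells keep such genes at a low tonic level in the absence of infection.

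The deposited values were FPKM, a read density per kilobase of transcript scaled by how many reads were mapped. They added up to 522517 to 588640 in a sample, and 11037 to 11175 rows per sample reached 1 FPKM. The low values came in steps of 1 read, and from these steps the depth relative to DMSO sample 1 was 1.00 to 1.18 in the DMSO samples, 0.840 to 1.07 in the E2 samples and 0.818 to 0.923 in the 4OHT samples. Each 4OHT sample was shallower than each DMSO sample, so depth and 4OHT cannot be told apart. *Pgr*, the progesterone receptor and an estrogen target, was at 1.16 to 9.58 FPKM in DMSO, 15.9 to 38.1 in E2 and 2.39 to 9.67 in 4OHT. The secretory and epithelial markers on the list summed to 1266 to 1397 FPKM in DMSO, 2165 to 2327 in E2 and 1352 to 1492 in 4OHT. 2 of the 8 markers, *Epcam* and *Cdh1*, stayed below 1 FPKM in every sample, against the epithelial label. The keratins *Krt7*, *Krt8* and *Krt18* and the secretory factor *Pax8* were abundant. Ciliated markers summed to 14.99 to 17.69 FPKM in DMSO, 10.2 to 14.25 in E2 and 15.5 to 17.23 in 4OHT. Nearly all of this was *Foxj1* and *Ccdc39*. Of the 6 ciliated markers listed, 4 had a row, and 2 of these stayed below 1 FPKM in every sample. The study describes the line as secretory cells only, and whether these transcripts mark ciliated cells was not tested. Fibroblast markers summed to 1.913 to 6.84 FPKM in DMSO, 2.226 to 4.66 in E2 and 2.034 to 5.319 in 4OHT, nearly all of it *Col1a1*. The leukocyte markers summed to 7.89 to 10.1 FPKM in DMSO, 7.44 to 10.0 in E2 and 6.58 to 8.99 in 4OHT, nearly all of it *Cd68* and *Csf1r*. *Cd3e* was listed at 0 in all samples, and the pan-leukocyte gene *Ptprc* did not exceed 0.0271 FPKM.

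Across the 9 samples, 6 of the 8 antigen processing genes and 5 of the 7 transcription factors had a median of at least 1 FPKM, while 10 of the 13 antiviral effectors and all 8 GBPs had a median below it. Of the 50 rows, 22 reached 1 FPKM in at least 3 samples and were tested, and 30 had a median below 1 FPKM. The highest median was that of *B2m*, the light chain of MHC class I, at 477 FPKM. *Bst2*, the tetherin that holds budding viruses on the cell surface, followed at 77.2 FPKM. The next levels were those of *Irf3* (21.8 FPKM), *Tapbp* (19.0), *Irgm1* (18.6), *Psmb10* (12.8), *Trim25* (11.4) and *Irf2* (10.5). The ranges of *Irf3* and *Tapbp* over the 9 samples overlapped (20.3 to 22.9 and 17.5 to 20.7 FPKM), so their order is not fixed by these data. *Iigp1* was listed at 0 in all 9 samples.

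**Figure D1:**
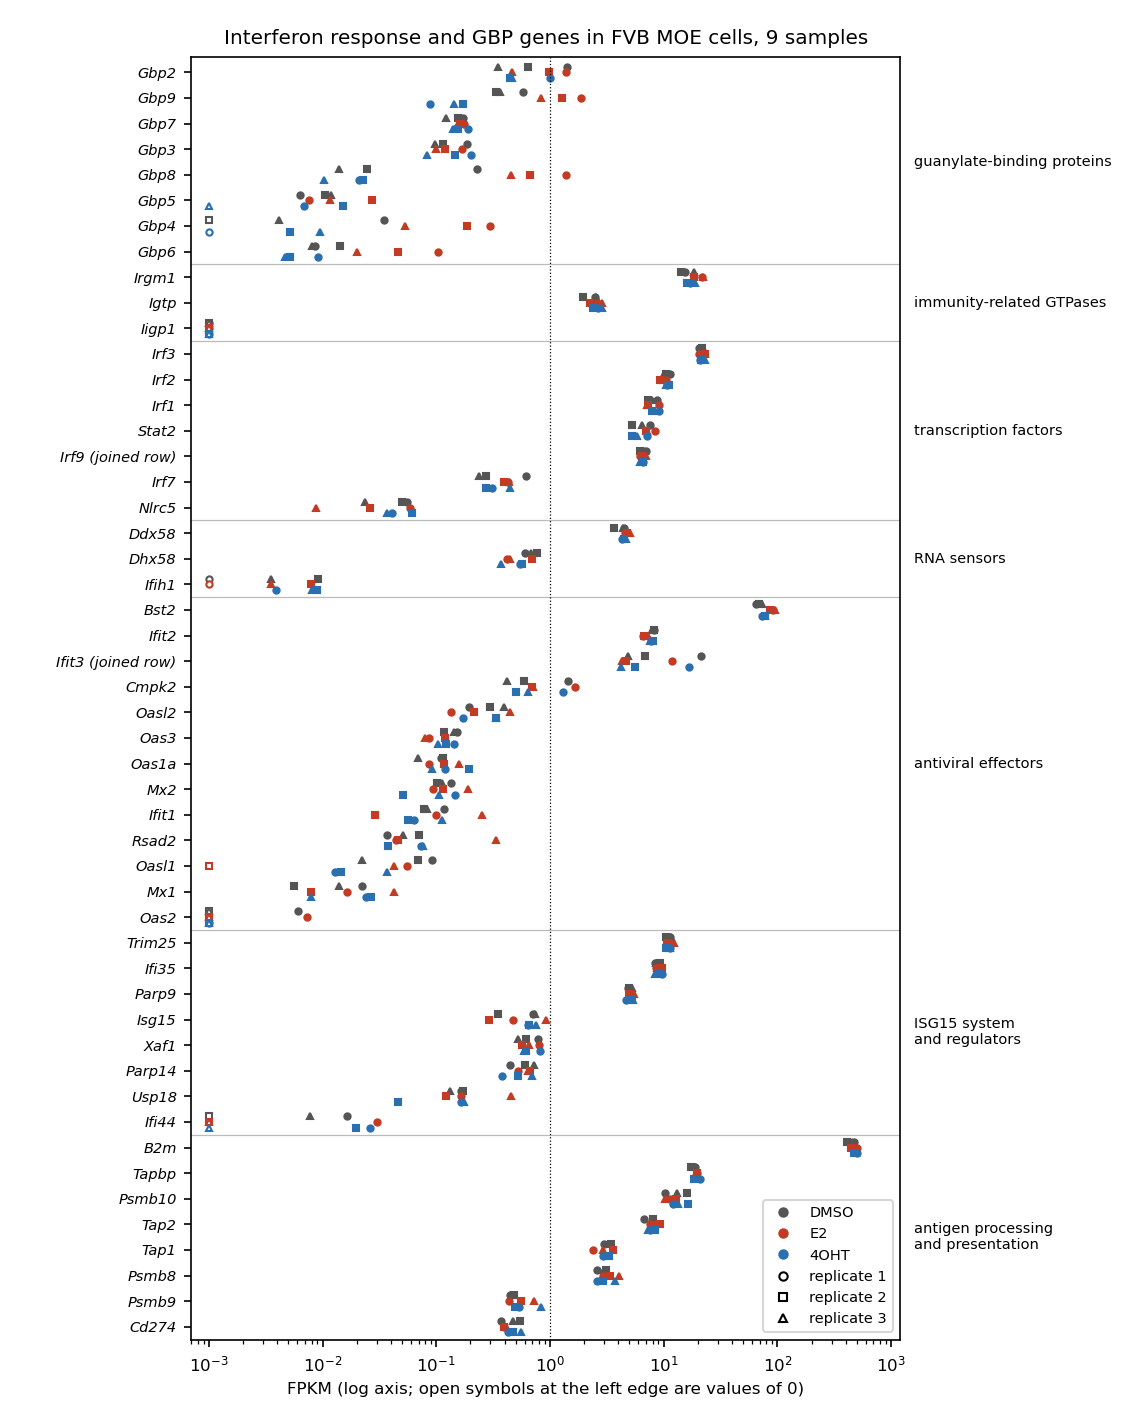
FPKM of the 50 members with a row in each of the 9 samples, on a log axis, grouped by role. Colours mark the condition, shapes the replicate number, open symbols at the left edge values of 0, and the dotted line 1 FPKM. *B2m* lies between 413 and 504 FPKM, most antiviral effectors lie below 1 FPKM, and the red E2 symbols of *Gbp4*, *Gbp6*, *Gbp8* and *Gbp9* stand to the right of the others.

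The ligands and receptors around the set were of opposite levels. From a list of other pathway genes, 18 of 22 interferon genes had a row, 12 of them were listed at 0 in every sample, and none exceeded 0.0905 FPKM. All 10 receptor and kinase genes with a row were detected, up to 93.2 FPKM for *Ifngr1*, a chain of the interferon gamma receptor.

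The first question was whether E2 changed these genes relative to solvent. The log2(FPKM + 1) values of all 9 samples were fitted with limma over the 11339 rows that reached 1 FPKM in at least 3 samples, with Benjamini-Hochberg adjustment within each contrast. *Bst2* was the 1 member of 22 with an adjusted p under 0.05 (limma, higher in E2), beside 0.583% of all rows tested. Same-numbered samples deviated together across the transcriptome, and with the replicate number as a block 5 of the 22 members passed, beside 18.8% of all rows. Of these, *Bst2*, *Irgm1* and *Stat2* rose and *Ifit2* and the joined *Ifit3* row fell. The members' share called under the block was close to that of all rows. The median log2 fold change of the 22 members was 0.058, beside a median of -0.0018 over all rows, and 15 of the 22 had a positive value. In these bulk samples fewer expressing cells and less RNA per cell cannot be told apart.

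*Bst2* was at 64.8, 69.5 and 73.5 FPKM in DMSO, at 92.3, 86.9 and 94.9 in E2, and at 73.2, 77.2 and 78.6 in 4OHT. All 3 E2 samples lay above all 6 others, and the DMSO and 4OHT ranges overlapped only through the DMSO sample of 73.5 FPKM. The log2 fold change of E2 against DMSO was 0.40 ± 0.06 (SE, adjusted p = 0.0376, limma), from a mean of 69.3 ± 4.36 to 91.4 ± 4.07 FPKM (SD, n = 3 each). With the replicate block the adjusted p was 0.000757. Without the block this call was lost whichever 1 of the 9 samples was left out, with an adjusted p of 0.0580 to 0.167. With the block it was kept in 9 of 9 such fits. No 50-base stretch of the annotated *Bst2* transcripts occurred in a transcript of another gene.

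*Irgm1*, a GTPase that governs the immunity-related GTPases and autophagy, followed the same order. It was at 15.3, 14.3 and 18.6 FPKM in DMSO, 21.7, 18.6 and 21.99 in E2, and 17.0, 16.1 and 18.9 in 4OHT. E2 was highest within each replicate number, while the conditions overlapped when the numbers were ignored. The E2 against DMSO log2 fold change was 0.35 ± 0.11 (SE, adjusted p = 0.276), and with the block 0.35 ± 0.05 (adjusted p = 0.00254). The related GTPase *Igtp* was at 2.47, 1.96 and 2.54 FPKM in DMSO, 2.61, 2.27 and 2.85 in E2, and 2.67, 2.41 and 2.88 in 4OHT, with overlapping conditions, and passed in no contrast.

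*Stat2*, a STAT factor of the type I interferon response, was at 7.55, 5.27 and 6.45 FPKM in DMSO, 8.39, 7.03 and 7.21 in E2, and 7.13, 5.30 and 5.83 in 4OHT. Again E2 was highest within each number, by less than the range of the DMSO samples. The log2 fold change against DMSO was 0.21 ± 0.05 with the block (adjusted p = 0.0286) and missed the threshold without it (adjusted p = 0.609). With a sample left out under the block, the call held in 5 of 9 fits. The other transcription factors did not pass: *Irf1*, *Irf2*, *Irf3* and the joined *Irf9* row had log2 fold changes between -0.09 and 0.04. *Irf3*, which responds to viral RNA sensing, was at 20.3, 21.8 and 22.4 FPKM in DMSO, 20.5, 22.9 and 22.9 in E2, and 21.0, 21.5 and 22.9 in 4OHT. *Irf2*, mostly a repressor of interferon genes, was at 11.3, 10.5 and 10.1 FPKM in DMSO, 10.5, 9.28 and 10.2 in E2, and 10.7, 11.1 and 10.4 in 4OHT. Neither gene separated the conditions. *Irf7*, the factor that amplifies the type I response, stayed between 0.238 and 0.618 FPKM, and *Nlrc5*, the activator of MHC class I genes, did not exceed 0.0607 FPKM.

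*Ifit2* and *Ifit3* belong to the IFIT family, which binds viral RNA and restrains its translation. *Ifit2* was at 8.22, 8.15 and 7.92 FPKM in DMSO, 6.64, 6.70 and 7.26 in E2, and 7.78, 8.05 and 7.57 in 4OHT, with every E2 sample below every other. Its log2 fold change against DMSO was -0.21 ± 0.05 with or without the block, with an adjusted p of 0.193 without it and 0.0194 with it. With a sample left out, the blocked call held in 4 of 9 fits.

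The joined *Ifit3* row was at 21.2, 6.87 and 4.85 FPKM in DMSO, 11.8, 4.68 and 4.31 in E2, and 16.8, 5.63 and 4.21 in 4OHT. The replicate number separated these values more than the condition did, with replicate 1 highest throughout. Within each number E2 was below DMSO, and the log2 fold change was -0.47 ± 0.10 with the block (adjusted p = 0.0181) and -0.47 ± 0.61 without it (adjusted p = 0.803). With a sample left out, the blocked call held in 6 of 9 fits. Leaving out DMSO replicate 1 without the block turned the value to 0.10. The study's own test on reads listed this joined row as lower with E2 than with DMSO. Of the 50-base stretches in *Ifit3* transcripts, 51.2% also occurred in *Ifit3b*, so reads of the 2 copies could not all be told apart and the row cannot be given to either gene.

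**Figure D2:**
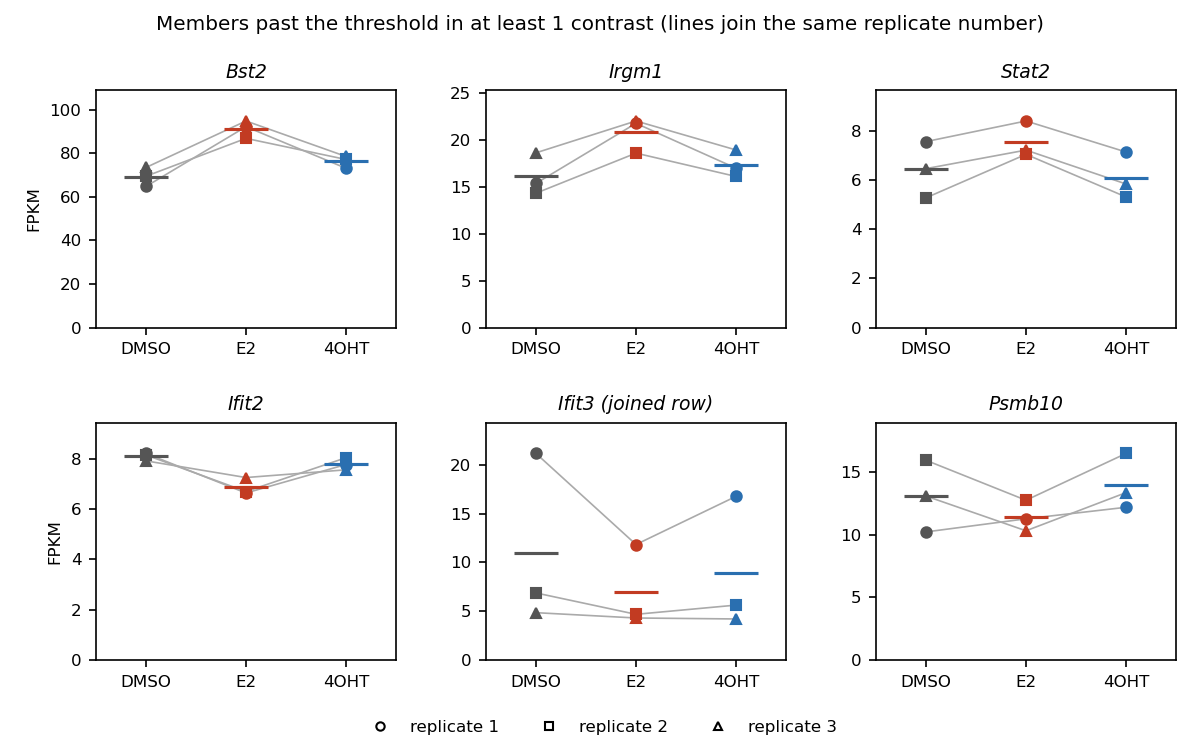
FPKM of the 6 members past an adjusted p of 0.05 in at least 1 contrast, by condition, with grey lines joining samples of the same replicate number and bars for the means of 3 samples. *Bst2*, *Irgm1* and *Stat2* peak in E2 within each replicate number, *Ifit2* dips in E2, and the joined *Ifit3* row is highest in replicate 1 of every condition.

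Promoters of these genes are shown because ISRE and GAS letters mark where interferon factors can bind. RefSeq start sites (GRCm38.p6) were on file for 36 of the 51 members, with 40 windows of the 250 bases before a start. An ISRE was searched as GAAA, any 2 bases, then GAAA on both strands, and a GAS as TTCNNNGAA. Capitals mark these matches, and a match on the other strand reads in reverse complement. The windows of *Bst2* (chr8:71537473-71537722, minus strand), *Stat2* (chr10:128270248-128270497, plus), *Ifit2* (chr19:34550444-34550693, plus, its more upstream start) and *Ifit3* (chr19:34583279-34583528, plus) run 5′ to 3′ on the gene's strand and hold no annotated exon of that strand.
Bst2: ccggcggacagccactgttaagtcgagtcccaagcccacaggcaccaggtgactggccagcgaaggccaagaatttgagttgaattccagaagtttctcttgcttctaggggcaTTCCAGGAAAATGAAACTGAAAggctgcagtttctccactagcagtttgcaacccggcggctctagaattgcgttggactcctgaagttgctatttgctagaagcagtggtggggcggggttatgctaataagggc
Stat2: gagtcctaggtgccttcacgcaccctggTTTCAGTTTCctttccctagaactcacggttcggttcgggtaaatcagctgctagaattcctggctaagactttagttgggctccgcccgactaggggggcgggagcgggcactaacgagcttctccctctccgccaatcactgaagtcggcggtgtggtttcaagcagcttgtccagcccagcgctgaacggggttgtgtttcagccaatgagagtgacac
Ifit2: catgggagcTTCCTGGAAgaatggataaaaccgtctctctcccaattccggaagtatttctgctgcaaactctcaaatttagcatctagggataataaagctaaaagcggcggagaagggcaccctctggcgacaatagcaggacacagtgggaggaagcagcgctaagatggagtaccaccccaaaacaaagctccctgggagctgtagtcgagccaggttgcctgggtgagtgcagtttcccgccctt
Ifit3: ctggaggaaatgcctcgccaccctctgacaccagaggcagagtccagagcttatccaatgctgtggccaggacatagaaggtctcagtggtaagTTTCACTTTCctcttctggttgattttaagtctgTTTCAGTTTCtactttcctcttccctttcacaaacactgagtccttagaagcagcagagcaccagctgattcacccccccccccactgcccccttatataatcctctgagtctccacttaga
For *Irgm1*, whose window lies within an annotated exon of its own strand, 26 bases around the matches are shown (chr11:48871430-48871455, minus strand).
Irgm1: ttcaaGAAATAGAAACCGAAActgat

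The *Bst2* window held 2 overlapping ISRE matches that began 130 and 124 bases before the start, with a GAS match overlapping the first at 136 bases. *Irgm1* held 2 overlapping ISRE matches at 30 and 24 bases, *Stat2* held 1 at 222 bases, *Ifit3* held 2 at 156 and 122 bases, and *Ifit2* held a GAS match at 241 bases and no ISRE match. An ISRE match was present in 16 of the 40 member windows, beside 2.98% of the 32851 windows of all genes, and a GAS match in 9 of 40, beside 7.02%. The estrogen response element was searched as GGTCA, 3 bases, then TGACC. It was in none of the 40 windows and in 0.0639% of all windows, a share so low that 40 windows cannot tell the members from other genes. Its single arm GGTCA was in 12 of 40, beside 35.2%. Members that rose and members that fell both held ISRE matches, and so did members with a median below 1 FPKM such as *Isg15*, with 3, and the 4 chromosome 3 GBPs. No window was on file for *Gbp4*, *Gbp6*, *Gbp8* and *Gbp9*, so these genes were not searched for any of the elements.

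The GBPs are large GTPases induced by interferon gamma that coat vacuoles and bacteria in the cytosol. In the GRCm38 annotation *Gbp2*, *Gbp3*, *Gbp5* and *Gbp7* lie in one cluster on chromosome 3, and *Gbp4*, *Gbp6*, *Gbp8* and *Gbp9* in another on chromosome 5. All 4 chromosome 5 genes were higher in every E2 sample than in any DMSO or 4OHT sample, and none of the 4 chromosome 3 genes was. Over all members with values above 0 in at least 3 samples, 7 of 48 (14.6%) lay without overlap above DMSO in E2, beside 7.56% of all rows, and 5 of 48 lay without overlap above 4OHT, beside 7.58%. None of the chromosome 5 genes reached 1 FPKM in at least 3 samples, although *Gbp8* and *Gbp9* passed 1 FPKM in some E2 samples. They were therefore not among the tested rows and are first given as values.

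*Gbp8* (chr5:105014150-105139540, minus strand) was at 0.227, 0.0248 and 0.0139 FPKM in DMSO, at 1.38, 0.668 and 0.450 in E2, and at 0.0208, 0.0229 and 0.0103 in 4OHT. In steps of 1 read these were about 47, 6 and 3 in DMSO, 242, 130 and 100 in E2, and 4, 4 and 2 in 4OHT. The ratio of mean FPKM of E2 to DMSO was 9.42, and it was 6.10, 27.0 and 32.4 within replicates 1, 2 and 3. DMSO replicate 1 decided this ratio: on the log2 scale it was 3.24, and 5.43 without that sample. Against 4OHT the ratio was 46.3. By the study's own test on reads, *Gbp8* was among the genes most raised by E2 over DMSO.

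*Gbp9* (chr5:105077630-105139539, minus strand) was at 0.579, 0.335 and 0.364 FPKM in DMSO, 1.88, 1.28 and 0.835 in E2, and 0.0888, 0.172 and 0.145 in 4OHT. The 3 conditions did not overlap, with 4OHT lowest. Mean FPKM was 3.13 times as high in E2 as in DMSO, with 3.25, 3.83 and 2.30 within the replicate numbers, and 4OHT was at 0.317 of DMSO. The 4OHT difference from DMSO did not pass in any fit run on these FPKM (lowest adjusted p = 0.301, limma with block, all rows above 0 and 0.1 added). The study's own test, which worked on reads, listed *Gbp9* as lower with 4OHT.

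*Gbp4* was at 0.0348, 0 and 0.00414 FPKM in DMSO, 0.294, 0.187 and 0.0535 in E2, and 0, 0.00518 and 0.00953 in 4OHT, or about 8, 0 and 1 reads in DMSO, 56, 40 and 13 in E2, and 0, 1 and 2 in 4OHT. *Gbp6* was at 0.00863, 0.0142 and 0.00814 FPKM in DMSO, 0.104, 0.0462 and 0.0201 in E2, and 0.00917, 0.00513 and 0.00470 in 4OHT, or 2, 4 and 2, then 20, 10 and 5, then 2, 1 and 1 reads. Both genes thus rest on few reads, and those of *Gbp6* outside E2 lie near the counting limit.

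To test these 4 rows, all rows with a value above 0 in at least 3 samples were fitted, a choice made after the values were seen for the block and for 0.1 in place of 1. With the block and 0.1 added, *Gbp8* rose by 2.36 ± 0.29 on the log2 scale against DMSO (SE, adjusted p = 0.00378, limma), *Gbp9* by 1.41 ± 0.28 (adjusted p = 0.0216) and *Gbp4* by 1.21 ± 0.26 (adjusted p = 0.0294). *Gbp6* had 0.47 ± 0.15 and an adjusted p of 0.0992. In this fit 10.8% of all rows passed against DMSO and 11.5% against 4OHT, and 7 and 6 of 48 members did. Against 4OHT the same 3 genes passed (adjusted p = 0.00290, 0.00359 and 0.0246). With the block and 1 added, *Gbp8* and *Gbp9* passed against DMSO (adjusted p = 0.0164 and 0.0220) and *Gbp4* did not (adjusted p = 0.0634). Without the block and with 0.1 added, *Gbp9* alone of the 4 passed, and against 4OHT only (adjusted p = 0.0373). Without the block and with 1 added, none of the 4 passed in either contrast, with adjusted p from 0.0690 to 0.464. An exact permutation test of 3 against 3 samples cannot give a two-sided p below 0.1.

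The chromosome 5 genes are close paralogs, and how reads that fit several of them were shared out is not stated. Of the 50-base stretches of the annotated transcripts, 18.1% in *Gbp8*, 8.05% in *Gbp9*, 7.70% in *Gbp4* and 70.7% in *Gbp6* occurred in a transcript of another gene, for *Gbp6* mostly in the model Gm43302 (65.0%). The *Gbp6* values are therefore uncertain as to gene. In the annotation *Gbp4* shares 61 exon bases with *Gbp8* and 60 with *Gbp9*, and *Gbp8* and *Gbp9* share 60. On the minus strand, the annotated start was 105139586 for *Gbp4*, 105139540 for *Gbp8* and 105139539 for *Gbp9*. Whether these genes rose separately was not tested, and the counts above take them as separate members. *Gbp11*, a chromosome 5 neighbour outside the set that the annotation calls a polymorphic pseudogene, was at 0.0471, 0.0225 and 0.00636 FPKM in DMSO, 0.203, 0.159 and 0.111 in E2, and 0, 0 and 0.0219 in 4OHT. *Gbp10*, from the same cluster, lay between 0.00485 and 0.0551 FPKM with overlapping conditions.

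On chromosome 3, *Gbp2* had the highest median of the GBPs and was tested, although *Gbp9* was higher in each E2 sample. *Gbp2* was at 1.41, 0.644 and 0.348 FPKM in DMSO, 1.40, 0.974 and 0.462 in E2, and 1.00, 0.444 and 0.468 in 4OHT. Replicate 1 was highest in each condition and the conditions overlapped, with a log2 fold change of E2 against DMSO of 0.12 ± 0.10 under the block (adjusted p = 0.415). *Gbp3* and *Gbp7* lay between 0.0837 and 0.203 FPKM, with mean FPKM in E2 at 0.9715 and 1.095 times that in DMSO. *Gbp5* rested on 0 to 4 reads a sample.

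**Figure D3:**
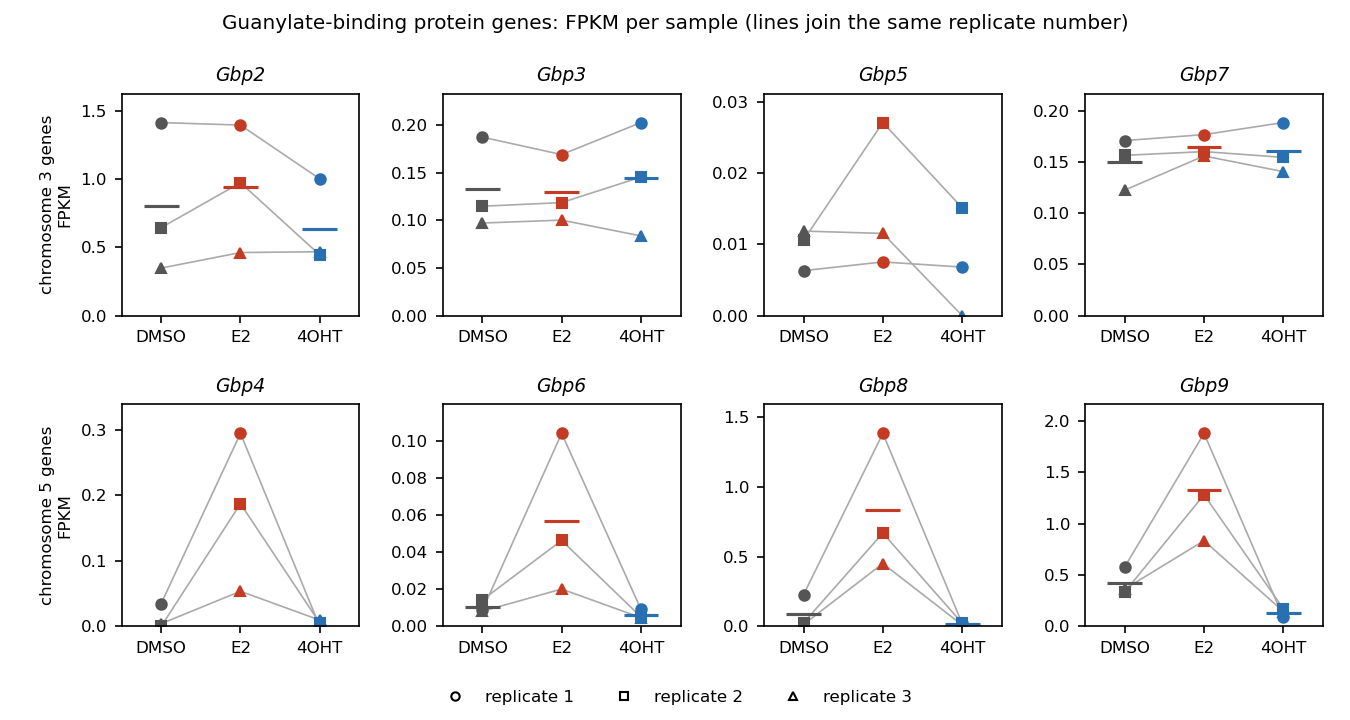
FPKM of the 8 GBP genes in each sample by condition, with the chromosome 3 genes above and the chromosome 5 genes below, grey lines joining the same replicate number and bars for the means of 3 samples where no value is 0. Each panel has its own axis from 0. The 4 chromosome 5 genes peak in E2 in every replicate, up to 1.88 FPKM for *Gbp9*, and the chromosome 3 genes overlap between conditions.

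The second question was whether 4OHT, which acts on the same receptor, moved these genes from the solvent level. No member of 22 passed without or with the block, beside 0% and 0.194% of all rows (limma, 0 and 4 members at an unadjusted p under 0.05). The values lay between -0.25 for the joined *Ifit3* row and 0.14 for *B2m* on the log2 scale, with a median of 0.025 beside 0.025 over all rows. *B2m* was at 474, 413 and 450 FPKM in DMSO, 502, 445 and 481 in E2, and 504, 477 and 495 in 4OHT. All 4OHT samples lay above all DMSO samples, by 0.14 ± 0.04 under the block, with an adjusted p of 0.236. *Bst2* was higher in 4OHT than in DMSO within each number, by 0.14 ± 0.04 (adjusted p = 0.299 under the block).

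The third question was how E2 differed from 4OHT. Without the block no member passed, beside 0.327% of all rows (3 members at an unadjusted p under 0.05). With it 5 of 22 did, beside 21.9% of all rows. *Bst2* (0.26 ± 0.04, adjusted p = 0.00651), *Irgm1* (0.25 ± 0.05, adjusted p = 0.0131) and *Stat2* (0.27 ± 0.05, adjusted p = 0.0112) were higher in E2. *Ifit2* was lower (-0.16 ± 0.05, adjusted p = 0.0453), with the blocked call kept in 1 of 9 fits with a sample left out. *Psmb10*, a catalytic subunit of the immunoproteasome, was also lower (-0.26 ± 0.08, adjusted p = 0.0483). It was at 10.2, 15.9 and 13.1 FPKM in DMSO, 11.3, 12.8 and 10.3 in E2, and 12.2, 16.5 and 13.4 in 4OHT, so the ranges overlapped, and 2 of 9 leave-one-out fits kept the call. This contrast and the one with DMSO share the E2 samples.

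**Figure D4:**
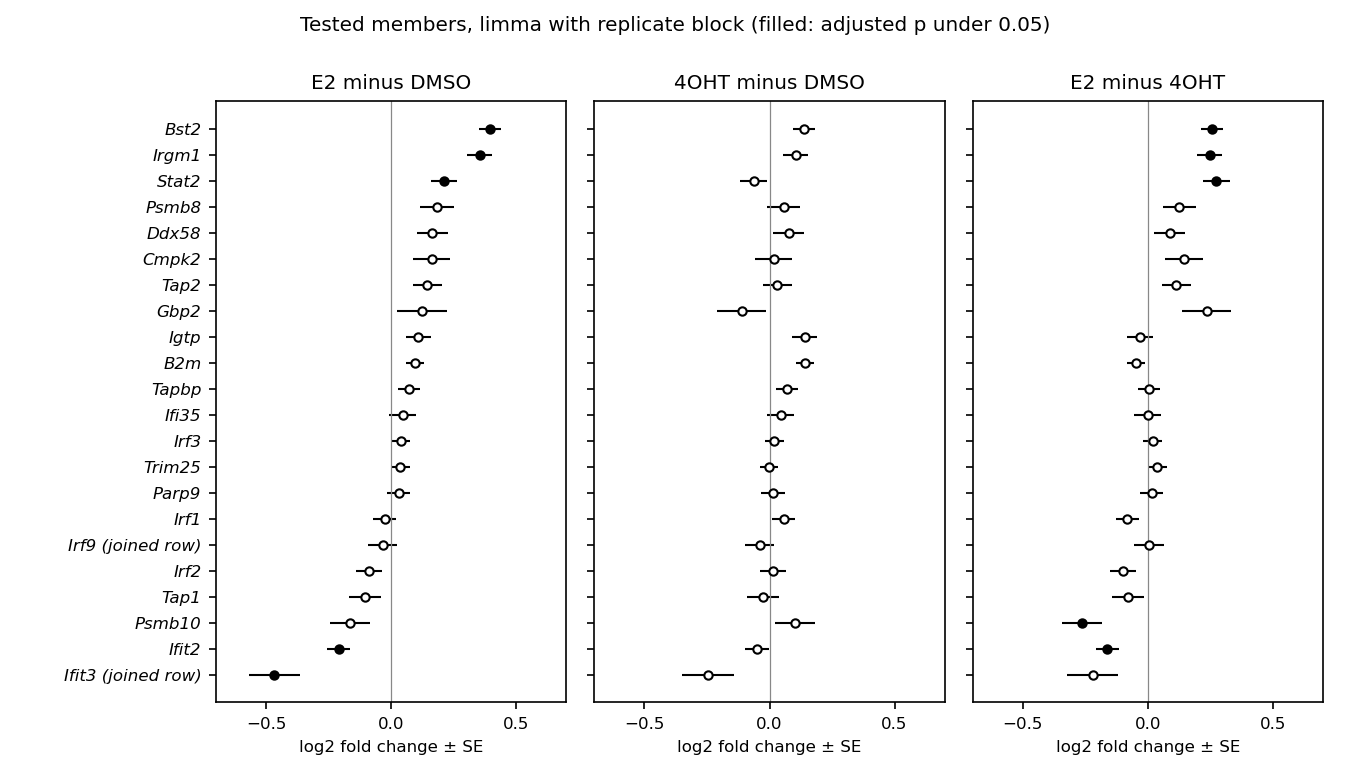
Log2 fold changes with standard errors of the 22 tested members in the 3 contrasts, from the limma fit with the replicate block, in the order of the E2 against DMSO value. Filled circles mark an adjusted p under 0.05. The filled points are 5 in E2 against DMSO, none in 4OHT against DMSO and 5 in E2 against 4OHT, with values between -0.47 and 0.40.

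By direction within replicate pairs, 18 of the 48 members with values above 0 in at least 3 samples were higher in E2 than in DMSO in all 3 pairs, beside 22.8% of all rows, and 3 were lower in all 3, beside 21.9%. Against 4OHT, 12 were higher in all pairs, beside 21.5%, and 8 were lower, beside 24.5%. Among those higher in both comparisons, which share the E2 samples, *Ddx58* and *Psmb8* had log2 fold changes against DMSO of 0.17 and 0.18, and neither was called.

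Of the antigen processing genes, *Psmb10* was called in E2 against 4OHT under the block, as given above, and no other was called in any contrast. *Psmb8*, an immunoproteasome subunit, was at 2.61 to 3.10 FPKM in DMSO and 2.94 to 4.02 in E2. The peptide transporter genes *Tap1* and *Tap2* lay between 2.40 and 3.57 and between 6.66 and 9.28 FPKM, respectively. *Tapbp*, which bridges the transporter and MHC class I, was at 18.9, 17.5 and 19.0 FPKM in DMSO, 19.5, 19.6 and 19.2 in E2, and 20.7, 18.7 and 18.9 in 4OHT. Its E2 samples all lay above DMSO, by less than the spread of the 4OHT samples. None of the 6 tested genes of this group passed against DMSO (lowest adjusted p = 0.0926 under the block). *Psmb9* and *Cd274*, the gene of PD-L1, did not exceed 0.827 and 0.559 FPKM.

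Of the RNA sensors, *Ddx58* (RIG-I) was at 4.50, 3.70 and 4.38 FPKM in DMSO, 4.57, 4.797 and 5.06 in E2, and 4.27, 4.45 and 4.68 in 4OHT. Its E2 and DMSO samples did not overlap, and the adjusted p was 0.0997 under the block. *Dhx58* (LGP2), below the tested level, was at 0.601, 0.768 and 0.678 FPKM in DMSO, 0.423, 0.691 and 0.447 in E2, and 0.546, 0.571 and 0.375 in 4OHT. Both E2 and 4OHT were lower than DMSO within each number, and the E2 samples overlapped DMSO while the 4OHT samples did not. *Ifih1* (MDA5) rested on 0 to 3 reads a sample.

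Of the 13 antiviral effectors, 10 had a median below 1 FPKM, while *Bst2*, *Ifit2* and the joined *Ifit3* row lay above it. Several of the low members had their highest value in E2 replicate 3, and they are named here after their values were seen. *Rsad2*, the viperin gene, was at 0.338 FPKM in that sample and at 0.0370 to 0.0761 in the other 8. *Usp18*, the protease that removes ISG15, was at 0.453 against 0.0461 to 0.176 FPKM, and *Ifit1* at 0.250 against 0.0291 to 0.116. *Mx1*, *Mx2*, *Oasl2* and *Isg15* also had their highest value there, at 0.0424, 0.191, 0.450 and 0.930 FPKM. The chromosome 5 GBPs, in contrast, were at their lowest E2 value in that sample. *Oas1a*, *Oas2*, *Oas3*, *Oasl1* and *Ifi44* showed no such peak and did not exceed 0.194 FPKM. *Cmpk2*, the neighbour of *Rsad2*, was at 1.43, 0.587 and 0.423 FPKM in DMSO, 1.66, 0.689 and 0.713 in E2, and 1.31, 0.503 and 0.638 in 4OHT, with replicate 1 highest.

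Among the ISG15 system and regulators, *Trim25*, a ubiquitin ligase that activates RIG-I, was at 11.3, 10.4 and 11.6 FPKM in DMSO, 11.5, 10.6 and 12.3 in E2, and 11.4, 10.5 and 11.4 in 4OHT. *Ifi35* was at 8.43, 9.21 and 8.53 FPKM in DMSO, 8.64, 9.64 and 8.83 in E2, and 9.69, 9.10 and 8.35 in 4OHT, and *Parp9* lay between 4.67 and 5.53 FPKM. The conditions overlapped in all 3 genes, and none passed in any contrast (lowest adjusted p = 0.472 under the block). *Parp14*, *Xaf1* and *Isg15* lay between 0.291 and 0.930 FPKM.

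The replicate number marked many members. In the same fit, 14 of the 22 differed between the numbers (limma moderated F, adjusted p under 0.05), beside 49.7% of all rows. The count was 7 without DMSO replicate 2, 9 without DMSO replicate 3 and 9 without E2 replicate 3. The joined *Ifit3* row had the widest difference, with replicates 2 and 3 lower than replicate 1 by -1.36 and -1.66 on the log2 scale (adjusted p = 4.04e-05). *Cmpk2* followed (-0.63 and -0.63) with *Gbp2* (-0.44 and -0.67) and *Stat2* (-0.35 and -0.21). Of the 6 tested antigen processing genes, 4 passed with higher values in replicates 2 and 3: *Psmb10* was at 0.39 and 0.11, *Psmb8* at 0.15 and 0.29, *Tap1* at 0.24 and 0.14 and *Tap2* at 0.20 and 0.10. *B2m* passed in the other direction (-0.15 and -0.05, adjusted p = 0.0225), and *Tapbp* (-0.08 and -0.05) did not pass. *Bst2* and *Ifit2* did not pass this test (adjusted p = 0.136 and 0.956). *Pgr* was also highest in replicate 1 of each condition. What the replicate numbers stand for is not given in the sources used here.

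**Figure D5:**
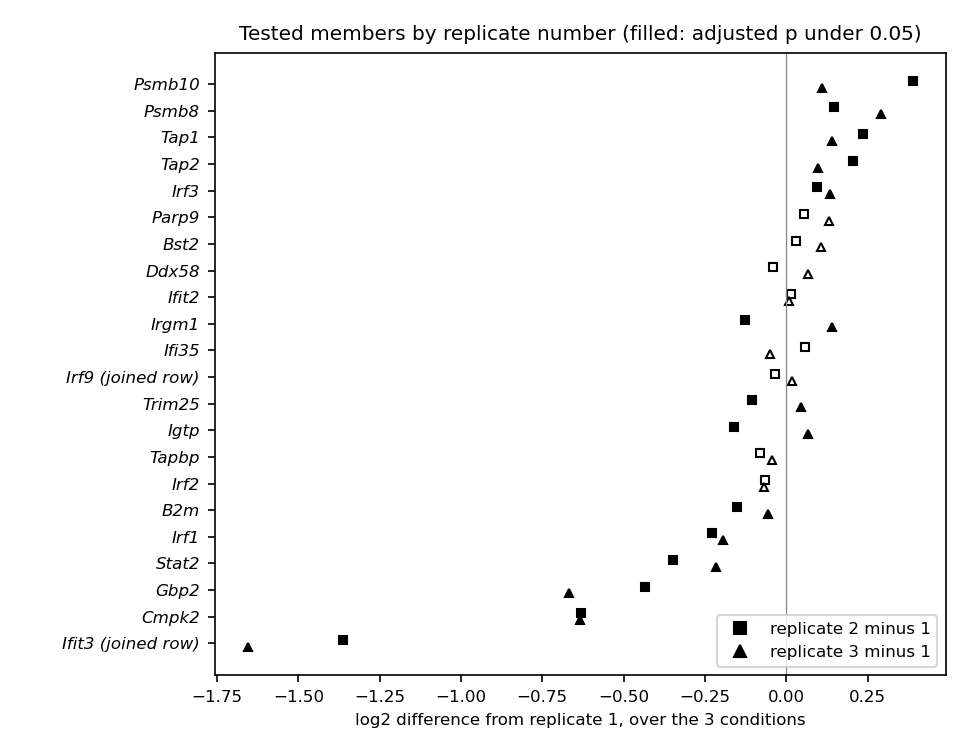
Differences of replicates 2 (squares) and 3 (triangles) from replicate 1 on the log2 scale for the 22 tested members, over the 3 conditions. Filled symbols mark an adjusted p under 0.05. The joined *Ifit3* row reaches -1.66, *Psmb10*, *Psmb8*, *Tap1* and *Tap2* lie to the right of 0, and *B2m* and *Tapbp* to its left.

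Of the wider list of other pathway genes, 59 were tested against DMSO. Without the block none passed (limma, 5 at an unadjusted p under 0.05), and with it 5 did, 2 higher and 3 lower, in a fit that called 18.8% of all rows. *Jak2*, the kinase of the interferon gamma receptor and of many cytokine receptors, was at 30.6, 19.5 and 19.3 FPKM in DMSO, 54.2, 41.0 and 36.5 in E2, and 30.8, 22.7 and 22.4 in 4OHT. All E2 samples lay above all others (log2 fold change against DMSO 0.91, adjusted p = 0.1499 without and 3.94e-05 with the block). *Ifnar2*, a chain of the type I receptor, was higher by 0.17 (adjusted p = 0.0200 with the block). *Ifitm3* (-0.39), *Ly6e* (-0.32) and *Irf2bp2* (-0.21) were lower under the block. *Ifitm3* and *Ly6e* are known as interferon-induced membrane proteins, and *Irf2bp2* as a corepressor. The epithelial marker sum, which rose with E2 mainly through *Krt7*, moved with these results, and its part in them was not tested.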

How the data were processed

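RNA from FVB MOE cells was sequenced in 9 samples. Per the labels and the study's methods, the authors trimmed and filtered the reads, aligned them to mm10 with TopHat2 2.0.8b and estimated known genes with Cufflinks (Cuffdiff 2.1.1 in the submitters' processing notes) from a UCSC annotation. The deposited values are FPKM, 1 file per sample. Whether a further scaling between samples entered them is not given in the sources used here, and counts were not used.

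The members, their roles and the other lists were chosen with earlier results of these data known. Rows that reached 1 FPKM in 3 or more samples were tested on log2(FPKM + 1), which understates changes of low genes, with limma 3.58.1 (R 4.3.3, variance trend), 1 coefficient per condition, Benjamini-Hochberg adjustment and a threshold of 0.05. Exact zeros were taken as missing in rows whose nonzero values had a median of 1 FPKM or more (569 values in 242 rows, none of a member). The replicate number, from the labels, was added as a block, since same-numbered samples deviated together (correlations from 0.52 to 0.83 in all 9 pairs of samples, over 11094 rows). Values are shown for every member past the threshold in either fit, otherwise for the 2 most abundant of each role, with further members named after their values were seen. Fits were tested on simulated data only for filtered rows with 1 added and changes in well expressed rows. The simulation held no zeros or read sampling, so it does not cover the fits of rows near 0. Steps of 1 read were accepted where values lay within a mean of 0.06 of whole numbers. Intervals of counts were not computed: FPKM hold no totals, and the read totals that the study lists for each sample were not used. Alternatives were the pseudocount 0.1, no filter, zeros kept, upper-quartile scaling, 6 samples only and each sample left out. Coordinates and transcripts are GENCODE's for GRCm38, which mm10 names. Promoters are RefSeq's. Figures used Python 3.11.15.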

Additional observations from a re-analysis of the deposited data

How the results depend on the processing

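The number of members past the threshold in E2 against DMSO, 1 without the block, was 5 with the replicate block and 5 with the block and zeros kept. It was 0 without the filter, 0 with only the 6 samples compared, and 0 to 0 with each sample left out. With the block and no filter it was 5, or 7 with 0.1 added, settings chosen after seeing the data. In E2 against 4OHT, 0 without the block became 5 with the block, 3 with the block and zeros kept, 5 with the block and no filter, 6 with the block, no filter and 0.1 added, and 1 with no filter and 0.1 added. 4OHT against DMSO stayed at 0 in every alternative run. With the block and a sample left out, the counts ran from 2 to 5 in E2 against DMSO and from 1 to 5 in E2 against 4OHT. The number of members that differed between replicate numbers, 14, ran from 7 to 11 with each sample left out, lowest without DMSO replicate 2. The joined *Ifit3* row turned to 0.10 in E2 against DMSO without DMSO replicate 1 and was -0.87 without E2 replicate 1. For *Bst2* the adjusted p was 0.0513 without the filter and 0.140 with 6 samples only. The log2 ratio of *Gbp6* in E2 to 4OHT, 3.16, was 2.39 without E2 replicate 1. The causes were not tested. FPKM hold no read totals, and changes in members near 0 are limited by a few reads per sample.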
